A study of Mus musculus with 23 samples.

Results

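A set of 36 genes for proteins that build ribosomes in the nucleolus was followed through normal mouse thymus and spleens with T-cell acute lymphoblastic leukemia (T-ALL). The genes were chosen by name, all 36 were found among the 24475 genes of the expression table, and all 36 were expressed above the filter used for testing (3 or more libraries with a scaled RPKM of 1 or above). RNA sequencing covered 23 samples. As controls served 6 thymus samples from normal C57BL/6 mice. The remaining samples came from unsorted spleens of BALB/c mice with the genotype Rag2-/-Il2rg-/-, in which leukemia arose after a newborn donor thymus had been placed under the kidney capsule. The donor thymus was wild type in 14 samples (WT T-ALL) and carried the Notch3 knockout allele in 3 samples (Notch3 KO T-ALL). The methods describe the wild-type donors as a congenic C57BL/6 line. The hosts lack lymphocytes but keep other blood cells, each T-ALL sample is 1 tumor, and the Notch3 allele carries an insertion in the first coding exon. Tissue, disease and host strain therefore change together between thymus and T-ALL and cannot be told apart. Each library is named by the number in its label.

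Ribosome production starts when RNA polymerase I copies the ribosomal RNA genes in the nucleolus. Small nucleolar RNAs, held in protein complexes called snoRNPs, then guide chemical modification of the transcript, while large assemblies of factors cleave it and fold it into the small and the large ribosomal subunit. Many of these genes are known targets of Myc, a transcription factor that drives cell growth and is itself a target of Notch1 in T-ALL. The genes are described here by role: 6 for RNA polymerase I transcription, 8 for snoRNP proteins, 6 for the small subunit, 12 for the large subunit and 4 for abundant nucleolar proteins.

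Values are log2(scaled RPKM + 1), where RPKM counts reads per transcript length and library size, and a difference is the mean of one group minus that of the other on this scale. Between 10154 and 11011 genes reached a scaled RPKM of 1 in each library. The methods give 1 approximate depth for all libraries, and the exact depth of each was not used here. Notch3 measured 2.59 to 3.74 in Notch3 KO T-ALL, 2.62 to 4.29 in thymus and 3.17 to 5.78 in WT T-ALL. RNA assigned to the targeted gene was thus present in the libraries labelled Notch3 KO. The study reports loss of the protein in knockout thymocyte progenitors by flow cytometry. RNA does not measure the protein, and the unsorted spleens also hold host cells. Of 10 T cell markers, 6 were lower in WT T-ALL than in thymus and 5 in Notch3 KO T-ALL, with 0 higher. Cd3e was present in every library, at 6.64 or above, while Cd4 had a mean of 8.51 in thymus, 4.22 in WT T-ALL and 5.28 in Notch3 KO T-ALL. The libraries also fell into 2 sets by their values, which the labels do not name: set A holds thymus 5 and 6, WT T-ALL 3, 4, 5 and 7 and the 3 Notch3 KO libraries, and set B the rest. Of the 11919 genes that passed the filter, set A lay above set B without overlap in both tissues in 30. In thymus alone, with 2 against 4 libraries, this held for 2258 genes, and in T-ALL alone for 32. The sets were drawn from these same values, so the 30 genes describe the split and do not test it.

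Myc binds the sequence CACGTG, and the start regions of the genes were searched for it, since the tumors are compared with Myc below. RefSeq windows on GRCm38.p6, from 250 bases before to 50 bases after each gene start, were given for 31 of the 36 genes. They were not used here for Bop1, Fbl, Npm1, Rrp12 and Rrs1. CACGTG reads the same on both strands. It stood in the windows of 7 of the 31 genes (22.6%), against 11.8% of the 9582 tested genes with a window. In the 250 bases before the start alone, it stood in 2 of 31 (6.45%), against 9.88% of tested genes, so 5 of the 7 had it only after the start. The sites are shown because they are the only places in these windows with the full motif, which is in capitals, with up to 12 bases on either side, 5′ to 3′ on the strand of the gene.
Mybbp1a, chr11:72441355-72441376, plus strand: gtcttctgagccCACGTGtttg
Nop2, chr6:125131811-125131840, plus strand: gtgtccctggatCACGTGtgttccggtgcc
Pes1, chr11:3963965-3963994, plus strand: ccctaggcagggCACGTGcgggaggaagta
Rrn3, chr16:13780472-13780501, plus strand: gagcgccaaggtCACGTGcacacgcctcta
Rrn3, chr16:13780639-13780668, plus strand: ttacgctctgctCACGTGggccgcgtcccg
Tsr1, chr11:74898092-74898121, plus strand: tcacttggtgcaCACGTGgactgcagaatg
Utp20, chr10:88826765-88826789, minus strand: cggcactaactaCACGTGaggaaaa
Wdr43, chr17:71616220-71616249, plus strand: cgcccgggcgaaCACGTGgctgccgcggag
The motif began at base 3 of the gene in Pes1 and at base 41 in Mybbp1a, and Rrn3 alone had it at 2 places, 215 and 48 bases before the start. A match says only that these letters are there, and binding was not measured.

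The first comparison, WT T-ALL against thymus, sets spleens filled by leukemia beside the normal organ of T cell development. Of the 36 genes, 33 were higher in WT T-ALL and 0 were lower at an adjusted p under 0.05 (limma, Benjamini-Hochberg over 11919 genes). Among all genes tested, 29.3% were called higher and 22.3% lower. The median difference was 0.96 over the 36 genes and 0.08 over all genes. It was above 0 in 34 of the 36, against 54.6% of all genes. Ubtf, Rrn3 and Wdr12 were not called. In 17 of the 36 genes every WT T-ALL library lay above every thymus library, which held for 8.42% of all genes. In bulk tissue, more cells of one kind and more RNA per cell cannot be told apart. All 8 markers of the proliferation list were also higher in WT T-ALL, with a summed scaled RPKM of 384 to 636 in thymus and 668 to 1189 in WT T-ALL.

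**Figure D1:**
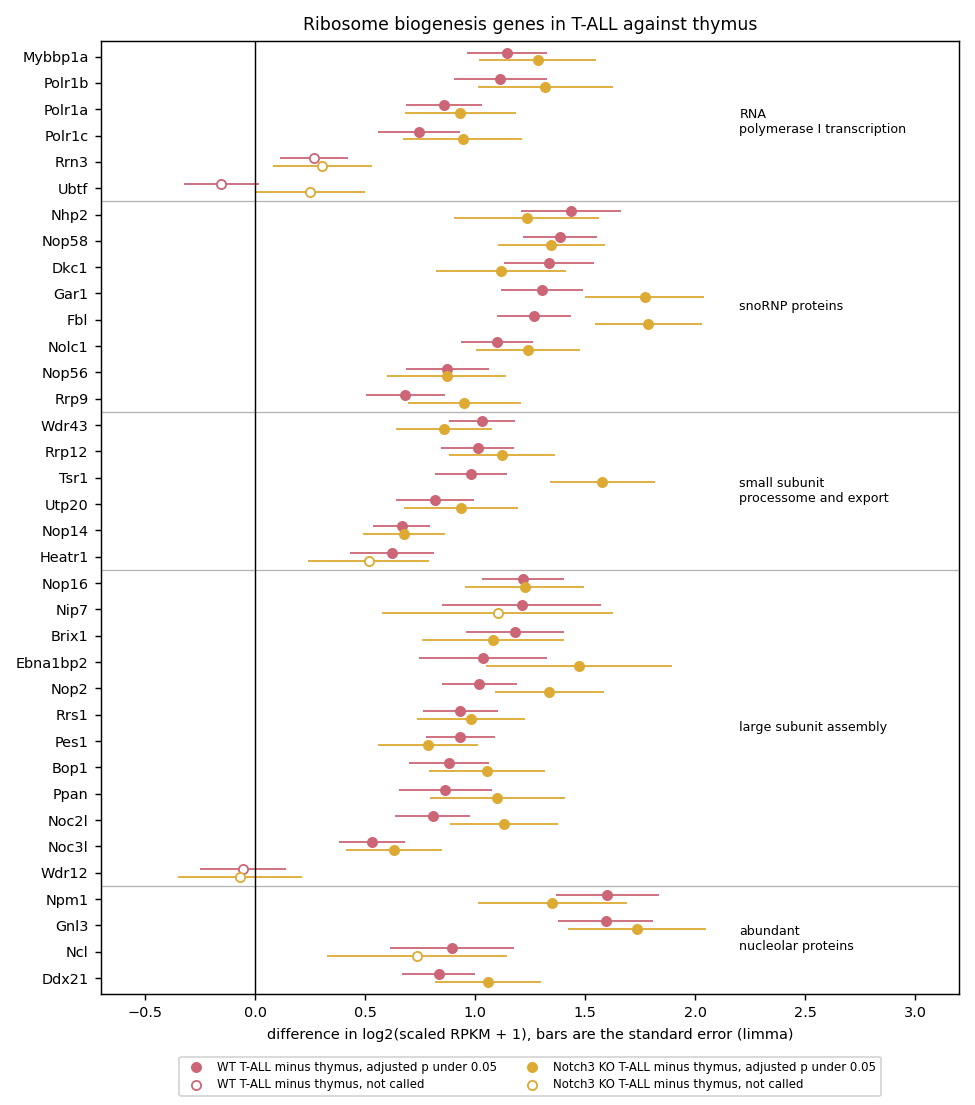
The horizontal axis is the difference in log2(scaled RPKM + 1) from thymus and the vertical axis lists the 36 genes by role. Points are limma estimates with their standard error, red for WT T-ALL and yellow for Notch3 KO T-ALL, filled where the adjusted p was under 0.05. Nearly all genes sit to the right of 0, and Ubtf, Rrn3 and Wdr12 are open in both comparisons.

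Among the 6 genes for RNA polymerase I transcription, 4 rose in WT T-ALL. The largest difference was in Mybbp1a (chromosome 11, 72441327 to 72451770), a nucleolar protein that binds Myb and takes part in ribosomal RNA production. Its thymus libraries 1 to 6 gave 5.13, 5.42, 5.12, 5.56, 4.48 and 4.58, and the WT T-ALL libraries lay between 5.60 and 6.85 with a median of 6.21. No WT T-ALL library overlapped the thymus libraries, and the difference was 1.14 (SE 0.18, limma adjusted p = 2.16e-05). The subunits of the enzyme rose too: Polr1a, its largest, by 0.86, Polr1b by 1.11 and Polr1c by 0.74.

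Ubtf (chromosome 11, 102304560 to 102323649), the factor that keeps ribosomal RNA genes open for RNA polymerase I, did not pass the test. Thymus libraries 1 to 6 gave 5.77, 6.18, 6.24, 6.03, 5.51 and 5.65, and WT T-ALL ran from 5.11 to 6.51 with a median of 5.74. The groups overlapped, with 2 of 14 tumors above and 4 below all thymus libraries, and the difference was -0.15 (SE 0.17, limma adjusted p = 0.468). Within set A it was 0.35 and within set B -0.38. Rrn3, which recruits the polymerase to the promoter, gave 0.27 (SE 0.15, limma adjusted p = 0.152).

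All 8 genes for snoRNP proteins rose in WT T-ALL, with a median difference of 1.28, the highest of the 5 roles. They include Fbl, Nop56 and Nop58 of the box C/D complexes, which methylate ribosomal RNA, and Dkc1, Gar1 and Nhp2 of the box H/ACA complexes, which convert uridine to pseudouridine. Nhp2 (chromosome 11, 51619773 to 51623718) had the largest difference. Its thymus libraries 1 to 6 gave 6.12, 5.65, 6.12, 5.51, 5.46 and 5.40, and WT T-ALL ran from 6.29 to 8.39 with a median of 7.15. The groups did not overlap, tumor 14 was the highest, and the difference was 1.44 (SE 0.23, limma adjusted p = 1.85e-05). The smallest was in Rrp9 (chromosome 9, 106477309 to 106485415), which is part of the U3 snoRNP that helps to cleave the transcript. Thymus libraries 1 to 6 gave 4.01, 4.10, 3.95, 4.02, 3.72 and 3.74, and WT T-ALL ran from 3.71 to 5.19 with a median of 4.68. Tumor 5 was as low as the lowest thymus library while 12 of 14 lay above all of them, and the difference was 0.68 (SE 0.18, limma adjusted p = 0.00292).

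Each of the 6 genes of the small subunit rose in WT T-ALL. Wdr43 (chromosome 17, 71616178 to 71659031) of the small subunit processome, the assembly that forms on the new transcript, had the largest difference. Thymus libraries 1 to 6 gave 5.02, 4.87, 5.17, 5.02, 4.83 and 4.98, and WT T-ALL ran from 5.34 to 6.68 with a median of 5.97. Every tumor was above every thymus library, with a difference of 1.03 (SE 0.15, limma adjusted p = 7.34e-06). Heatr1 (chromosome 13, 12395375 to 12438893), another processome factor, had the smallest. Its thymus libraries 1 to 6 gave 3.81, 4.03, 4.00, 4.12, 3.18 and 2.95, and WT T-ALL ran from 3.62 to 4.95 with a median of 4.35. The groups overlapped, and the difference of 0.62 (SE 0.19, limma adjusted p = 0.00878) was 0.31 without thymus 5 and 6 (adjusted p = 0.193) and 0.42 within set B, which also leaves them out (adjusted p = 0.0472). Tsr1 and Rrp12, which act late on the small subunit and in its export, rose by 0.98 and 1.01, and Utp20 and Nop14 by 0.82 and 0.67.

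Of the 12 genes for the large subunit, 11 rose. Nop16 (chromosome 13, 54584191 to 54590097), a factor of early large subunit particles, had the largest difference. Thymus libraries 1 to 6 gave 4.36, 4.50, 4.33, 4.38, 3.63 and 3.47, and WT T-ALL ran from 4.81 to 6.22 with a median of 5.32. The groups did not overlap, and the difference was 1.22 (SE 0.19, limma adjusted p = 1.40e-05). Pes1, Bop1 and Wdr12 make up one complex that is needed to mature the large subunit RNA. Pes1 rose by 0.93 (limma adjusted p = 4.02e-05) and Bop1 by 0.88 (limma adjusted p = 0.000369), whereas Wdr12 (chromosome 1, 60071361 to 60098500) did not pass the test. The thymus libraries of Wdr12 gave 5.01, 4.94, 5.39, 4.88, 5.06 and 5.01, and WT T-ALL ran from 3.86 in tumor 5 to 6.14 in tumor 14, with a median of 4.99. Its tumors lay on both sides of thymus, with a difference of -0.06 (SE 0.20, 95% interval -0.44 to 0.32, limma adjusted p = 0.820). A difference of the size seen in Pes1 lies outside that interval.

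Among the other large subunit genes, Nip7 and Ebna1bp2 varied most within thymus. Ebna1bp2 ran from 4.51 to 5.88 in thymus and from 4.97 to 7.21 in WT T-ALL, a difference of 1.04 (SE 0.29, limma adjusted p = 0.00501) with 10 of 14 tumors above all thymus libraries. Within set B, Ebna1bp2 (0.80, limma adjusted p = 0.0794) and Noc3l (0.39, limma adjusted p = 0.117) did not pass. Nip7 measured 5.69 and 5.55 in thymus 1 and 3 and 3.84 to 4.15 in the other 4, and among WT T-ALL tumors 5, 7 and 111 were within the thymus range. Its difference was 1.21 (SE 0.36, limma adjusted p = 0.00794), and -0.44 with erythroid markers as a covariate. Rrs1, Brix1, Nop2, Noc2l, Noc3l and Ppan rose by 0.53 to 1.18.

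All 4 abundant nucleolar proteins rose in WT T-ALL. Npm1 (chromosome 11, 33152498 to 33164142), nucleophosmin, a chaperone of the nucleolus, had the highest level per length of the 36 genes in each group, with a median scaled RPKM of 548 in thymus and 1641 in WT T-ALL. Its log2 values in thymus 1 to 6 were 9.59, 9.01, 9.67, 9.09, 9.09 and 9.11, and those of WT T-ALL ran from 10.11 to 12.06 with a median of 10.68. The groups lay apart, and the difference of 1.60 (SE 0.23, limma adjusted p = 7.35e-06) was the largest of the 36. Gnl3, nucleostemin, a GTP-binding protein of the nucleolus, rose by 1.59. The smallest difference was in Ddx21 (chromosome 10, 62580247 to 62602298), a nucleolar RNA helicase. Thymus ran from 4.81 to 5.73 with a median of 5.57, and WT T-ALL ran from 5.92 to 6.71 with a median of 6.24. No tumor overlapped thymus, and the difference was 0.83 (SE 0.17, limma adjusted p = 0.000254). Ncl, nucleolin, was second in level per length and rose by 0.89 (limma adjusted p = 0.0110), with 5 of 14 tumors above all thymus libraries, and the difference was 0.62 within set B (limma adjusted p = 0.118) and -0.20 with proliferation markers as a covariate.

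**Figure D2:**
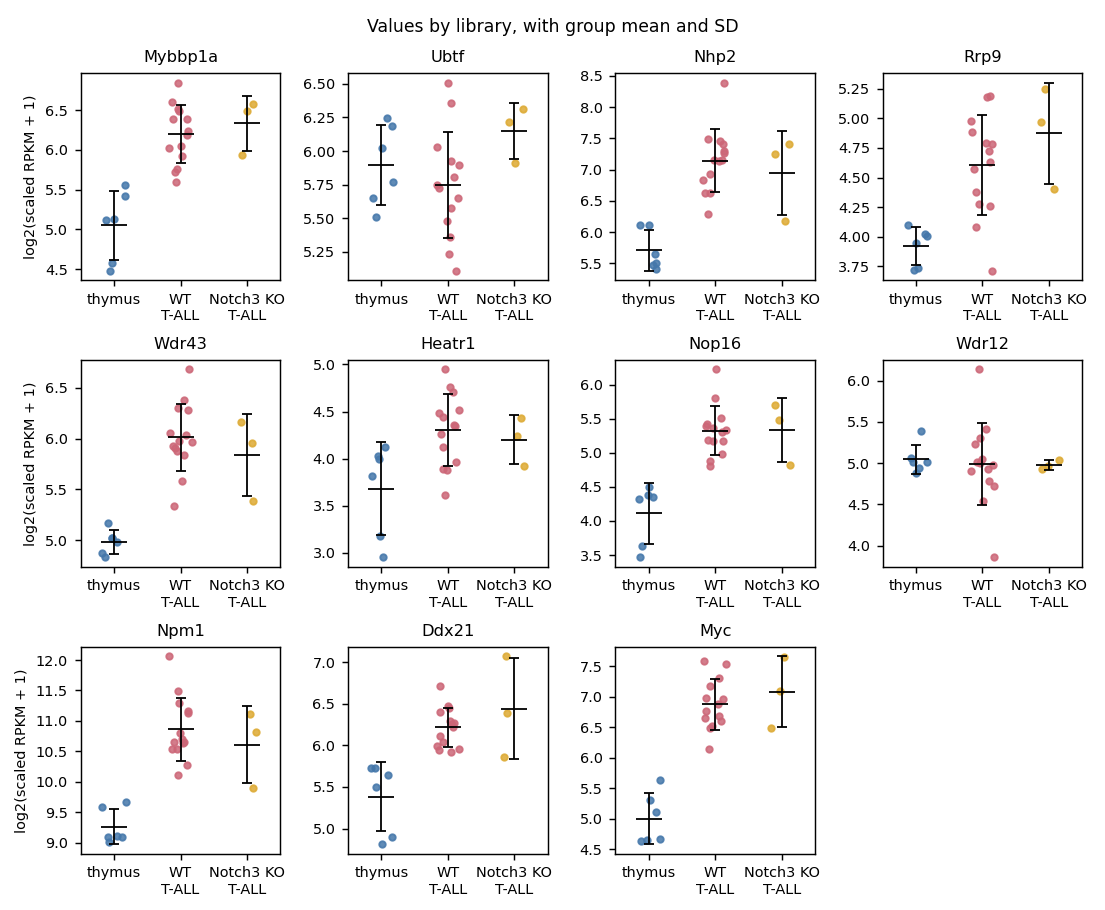
Each panel is 1 gene, with log2(scaled RPKM + 1) on the vertical axis and the 3 groups on the horizontal axis (thymus n = 6, WT T-ALL n = 14, Notch3 KO T-ALL n = 3). Points are libraries and bars the mean and SD. Thymus lies apart from both T-ALL groups in Npm1, Nhp2, Nop16 and Wdr43, and overlaps them in Ubtf and Wdr12. The T-ALL groups overlap each other in all of these genes.

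The count depended on how the libraries were scaled and on which covariate was fitted. Scaling each library to the sum of all genes other than mitochondrial and hemoglobin genes, instead of to the upper quartile, moved the median of all genes from 0.08 to -0.27. On that scale 23 of the 36 genes were higher and 2, Ubtf and Wdr12, were lower, while 1869 of all genes were higher and 4618 lower. The median difference of the 36 genes was then 0.56, still above that of all genes. With the mean of the proliferation markers as a covariate, the median difference was 0.77, its median standard error rose from 0.18 to 0.34, and 1 gene, Nop58, was called, where 403 of all 11919 genes were higher and 683 lower. With the erythroid markers it was 1.06 and 14 genes were called higher, where 694 of all genes were higher and 695 lower. Neither covariate overlapped between the groups. The proliferation mean was 5.23 to 5.84 in thymus and 6.11 to 6.83 in WT T-ALL, and the erythroid mean 0.78 to 2.38 and 3.51 to 7.84. These fits therefore extrapolate and cannot tell the covariate from the group. The erythroid list had a summed scaled RPKM of 24.6 to 393 in thymus and 768 to 52094 in WT T-ALL, with 10 of 11 genes higher, and Epb42, Klf1 and Rhag listed at 0 in at least 1 thymus library. Macrophage (8 of 9 higher, 9.76 to 64.7 against 24.2 to 410) and neutrophil markers (8 of 8 higher, 58.2 to 538 against 659 to 86890) were higher as well, as were 5 of 5 megakaryocyte markers (0.705 to 1.27 against 4.18 to 200.2). The summed T cell markers were lower (4082 to 5362 against 1460 to 3446), as were all 4 B cell markers tested (17.4 to 23.03 against 0.520 to 5.80 for the list). Transcript length also went with the groups: the correlation across genes of a library's deviation from the mean of all libraries with log2 transcript length was at least 0.095 in every thymus library and at most 0.074 in WT T-ALL and 0.042 in Notch3 KO T-ALL, with lowest values of -0.23 and -0.19. With a correction for length and GC content 31 of the 36 genes were higher in WT T-ALL, where 2932 of all genes were higher and 3336 lower. The part of these measures in the result was not tested beyond these fits.

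Thymus 5 and 6, both of set A, lay below the other 4 thymus libraries without overlap in 20 of the 36 genes and above them in 0. They also held less macrophage and neutrophil RNA, with summed markers of 9.76 and 10.6 against 42.1 to 64.7 and of 66.3 and 58.2 against 205 to 538. Among the 11919 genes that passed the filter they lay below in 3295 and above in 2258. Without these 2 libraries 28 genes were higher in WT T-ALL, where 2523 of all 11867 genes were. Within set A alone the median difference was 1.30, with 24 genes higher, where 993 of all 11234 were. Within set B it was 0.79, with 30 higher, where 2664 of all 11512 were.

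Other genes of the pathway were read from 7 lists with 146 genes, of which 145 were tested. In WT T-ALL 91 were higher and 3 lower, beside 29.3% and 22.3% of all genes, with a median difference of 0.51. After scaling to the sum of other genes 37 were higher and 19 lower, where 1869 of all 11919 genes were higher and 4618 lower. The factors of snoRNP assembly had 9 of 10 higher, led by Nhp2l1, a core protein of box C/D complexes, at 1.35 (SE 0.19, limma adjusted p = 3.49e-06), and Shq1, a chaperone of Dkc1, at 1.07. Further small subunit factors had 33 of 46 higher, with Rcl1 at 1.26 and Pno1 at 1.11, and large subunit factors 26 of 46, with Rrp15 at 1.37 and Mrto4 at 1.12. Of the RNA exosome and trimming factors 11 of 17 were higher, with Exosc2 at 0.94 and Exosc7 at 0.93, and of the proteins of RNase MRP and RNase P 6 of 9, with Pop1 at 1.33 and Rpp38 at 1.13. The remaining RNA polymerase I subunits and factors had 4 of 10 higher, with Taf1d at 1.12 and Cd3eap at 0.97. None of these 6 lists had a gene called lower.

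In a list of 7 genes that silence or guard ribosomal RNA genes 2 were higher and 3 lower, beside 29.3% and 22.3% of all genes, and the list was not tested against the others. Baz2a, the large subunit of the nucleolar remodeling complex that silences ribosomal RNA genes, fell by 1.24 (SE 0.15, limma adjusted p = 8.57e-07), from 5.61 ± 0.36 in thymus (SD, n = 6) to 4.38 ± 0.30 in WT T-ALL (n = 14). Sirt7, a nucleolar deacetylase, fell by 0.67. The 2 that rose, Dnmt1 at 0.71 and Suv39h1 at 0.48, act on DNA and histone methylation throughout the genome.

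Notch3 KO T-ALL was compared with the same 6 thymus libraries, to ask the same of tumors from donors labelled Notch3 knockout. Since the controls are shared, the 2 comparisons with thymus are not independent. Here 30 of the 36 genes were higher and 0 lower, against 21.2% and 16.3% of all genes, and the median difference was 1.09. It was above 0 in 35 of the 36, against 53.8% of all genes. In 29 genes all 3 Notch3 KO libraries lay above all thymus libraries, which held for 23.9% of all genes. Ubtf, Rrn3, Heatr1, Wdr12, Nip7 and Ncl were not called. By role, 4 of 6 RNA polymerase I genes, 8 of 8 snoRNP genes, 5 of 6 small subunit genes, 10 of 12 large subunit genes and 3 of 4 abundant nucleolar proteins were higher.

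The largest difference was in Fbl, the methyltransferase of box C/D complexes. It measured 8.37, 7.56 and 8.28 in the 3 Notch3 KO libraries, and 6.54, 6.52, 6.72, 6.51, 5.83 and 5.59 in the 6 of thymus. The groups lay apart, with a difference of 1.79 (SE 0.24, limma adjusted p = 8.17e-06). Gar1 gave 6.81, 5.73 and 6.59 in Notch3 KO T-ALL and 4.08 to 4.96 in thymus, a difference of 1.77 (SE 0.27, limma adjusted p = 3.16e-05). Gnl3 gave 7.02, 6.21 and 6.64 against 4.68 to 5.10, a difference of 1.73. At the other end, Wdr12 gave 4.97, 4.92 and 5.04, within the thymus range, with a difference of -0.07 (SE 0.28, limma adjusted p = 0.866). Ubtf differed by 0.25 (SE 0.25) and Rrn3 by 0.30 (SE 0.22).

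The proliferation markers were higher in this group too (7 of 8, summed scaled RPKM 860 to 1106), as were the erythroid markers (11 of 11, 31561 to 103460), the macrophage markers (9 of 9, 282 to 420), 4 of 8 neutrophil markers (206 to 7730) and 5 of 5 megakaryocyte markers (60.9 to 185), while all 4 B cell markers tested were lower (0.638 to 1.53 for the list). With the proliferation covariate 0 of the 36 genes were called by limma, where 263 of all genes were higher, with a median difference of 0.77 and a median standard error of 0.44 in place of 0.26. With the erythroid covariate 4 were called, Gar1, Tsr1, Ppan and Noc2l, where 205 of all genes were higher, with a median difference of 1.06 and a median standard error of 0.57. The proliferation mean (6.49 to 6.76) and the erythroid mean (6.97 to 9.18) lay above thymus without overlap here too, so these fits also extrapolate. After scaling to the sum of other genes 17 were higher, where 1273 of all genes were. Within set A, the 3 Notch3 KO libraries against thymus 5 and 6, 26 were higher, where 1719 of all 11234 genes were. Of the 145 other genes of the pathway, 59 were higher and 2 lower in Notch3 KO T-ALL, beside 21.2% and 16.3% of all genes. Without Notch3 KO library 1 these were 32 and 2, where 1836 of all 11888 genes were higher and 1444 lower. After scaling to the sum of other genes they were 18 and 15, where 1273 of all 11919 genes were higher and 3614 lower.

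**Figure D3:**
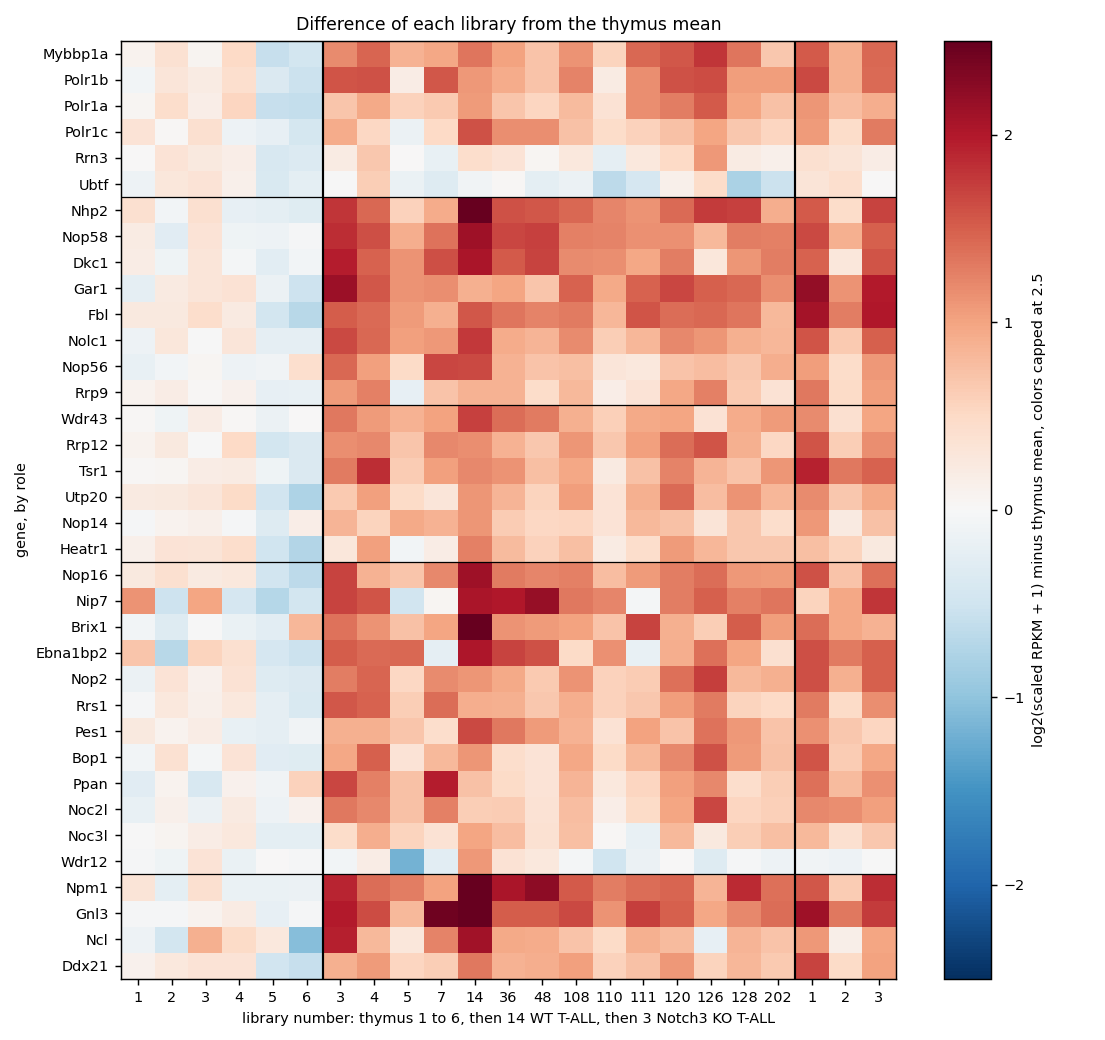
Rows are the 36 genes by role and columns the 23 libraries, and color is the difference of a library from the thymus mean in log2(scaled RPKM + 1). Most tumors are red in most rows, Ubtf and Wdr12 are pale or blue in many tumors but red in some, such as Wdr12 in tumor 14 and Ubtf in tumor 4, and tumor 14 is the darkest column for Npm1, Gnl3, Nhp2 and Brix1.

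Notch3 KO T-ALL was next compared with WT T-ALL, which asks whether the donor genotype changed these genes in the tumors. None of the 36 genes was called (limma over 11677 genes), where 0.591% of all genes were higher and 0.0257% lower. The exact permutation test called 0 genes in all, but with 680 splits its smallest possible p is 0.00147, which leaves little room to pass adjustment over all genes, and 973 genes had an unadjusted p under 0.05. At an unadjusted p under 0.05, limma gave 2 of the 36, Fbl and Tsr1, and 994 of all 11677 genes in either direction. In 0 of the 36 genes did the groups lie apart, against 0.325% of all genes upward and 0.111% downward. The difference was above 0 in 24 of the 36, against 49.5% of all genes. Its median was 0.10. Single libraries moved both values: 14 of the 36 were above 0, with a median of -0.02, without Notch3 KO library 1, and 32, with a median of 0.28, without library 2.

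The 3 largest differences were in Tsr1, Fbl and Gar1. Tsr1 gave 5.68, 5.07 and 5.23 in Notch3 KO T-ALL, and 3.98 to 5.60 in WT T-ALL with a median of 4.75, a difference of 0.60 (SE 0.23, 95% interval 0.14 to 1.06, limma adjusted p = 0.379). Fbl differed by 0.52 (95% interval 0.13 to 0.91) and 2 of its 3 libraries lay above all WT T-ALL. Gar1 differed by 0.47 (95% interval -0.03 to 0.96). Leaving out single libraries gave 0.42 to 0.72 for Tsr1, 0.37 to 0.77 for Fbl and 0.25 to 0.79 for Gar1. The 3 lowest differences were Npm1 at -0.25 (95% interval -0.90 to 0.40), Dkc1 at -0.22 (-0.80 to 0.36) and Nhp2 at -0.20 (-0.82 to 0.42), and all 3 turned positive without Notch3 KO library 2. A test that was not passed does not show equal levels, and the interval of Npm1 holds a fall of up to 0.90. The 3 Notch3 KO tumors themselves differed: library 2 was the lowest of the 3 in 29 of the 36 genes and library 1 the highest in 28.

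Myc was higher in both T-ALL groups than in thymus. Its thymus libraries 1 to 6 gave 4.63, 5.32, 4.66, 5.64, 4.67 and 5.12, WT T-ALL ran from 6.14 to 7.59 with a median of 6.82, and Notch3 KO libraries 1, 2 and 3 gave 7.66, 6.496 and 7.09. Both T-ALL groups lay above thymus without overlap, by 1.87 (SE 0.21, limma adjusted p = 1.60e-07) and 2.08 (SE 0.30, limma adjusted p = 1.53e-05). Whether the genes follow Myc from tumor to tumor was asked across the 14 WT T-ALL libraries, where the donor genotype is the same.

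None of the 36 genes was correlated with Myc across the 14 libraries at an adjusted p under 0.05 (permutation test of Pearson's r, 11475 genes), and 0 of all genes were. At an unadjusted p under 0.05, 5 of the 36 had a positive r, against 7.92% of all genes. The coefficient was above 0 in 25 of the 36 genes, against 51.2% of all genes, and its median was 0.16 against 0.01. Ppan, a large subunit factor, had the highest value, with r = 0.76 (permutation p = 0.00174, adjusted p = 0.202) and rho = 0.82 (permutation p = 0.000480, adjusted p = 0.438). Ppan ran from 4.58 in tumor 110, which also had the lowest Myc, to 6.29 in tumor 7, which had the highest. Nop14 followed with r = 0.62 (permutation p = 0.0177) and rho = 0.59 (permutation p = 0.0291), Noc2l with r = 0.58 (permutation p = 0.0276) and rho = 0.72 (permutation p = 0.00483), and Nop56 with r = 0.57 (permutation p = 0.0338) and rho = 0.57 (permutation p = 0.0348). The adjusted p of these 3 genes, by r, ran from 0.298 to 0.348, and by rho from 0.439 to 0.528. The lowest values were in Nip7, with r = -0.38 (permutation p = 0.181, adjusted p = 0.571) and rho = -0.06 (permutation p = 0.844), and Polr1c, with r = -0.24 (permutation p = 0.411, adjusted p = 0.742) and rho = -0.12 (permutation p = 0.684).

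Tumors 5 and 7 had the most Myc, at 7.55 and 7.59, and lay farthest from the median. Tumor 5 was the lowest of the 14 in 12 of the 36 genes, Nip7, Rrp9, Wdr12 and Nhp2 among them. Without tumors 5 and 7 the coefficient was above 0 in 36 of 36 genes, against 56.9% of all genes, and its median was 0.51. At an unadjusted p under 0.05 there were then 13 of the 36, against 7.06% of all genes, and 0 passed adjustment. Ppan had r = 0.83 (permutation p = 0.000760), Nop56 0.71, Noc2l 0.66, Nop14 0.49, Nip7 0.29 and Polr1c 0.29 over these 12 libraries. Set B leaves out tumors 3, 4, 5 and 7, and its 10 libraries are part of these 12, so it is no separate test. Within it r was above 0 in 36 of 36 genes, against 56.9% of all genes, with a median of 0.55 against 0.07. At an unadjusted p under 0.05 there were 11 of the 36, against 3.32% of all genes. Set A holds 4 WT T-ALL libraries, too few for a correlation.

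Other measures of the libraries were set against Myc in the same way, 8 in all, and 0 passed adjustment. Over the 14 libraries the erythroid marker mean had r = -0.61 (permutation p = 0.0198, adjusted p = 0.158, rho = -0.52, permutation p = 0.0614), the neutrophil mean -0.53 (permutation p = 0.0485, adjusted p = 0.193, rho = -0.42, permutation p = 0.136), the mitochondrial share 0.50 (permutation p = 0.0722, adjusted p = 0.193, rho = 0.28, permutation p = 0.333) and the proliferation mean 0.39 (permutation p = 0.168, adjusted p = 0.326, rho = 0.35, permutation p = 0.226). Without tumors 5 and 7 these were -0.25, -0.40, -0.25 and 0.54, and within set B 0.08, -0.42, -0.25 and 0.46. Their part in the relation of the 36 genes with Myc was not tested.

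**Figure D4:**
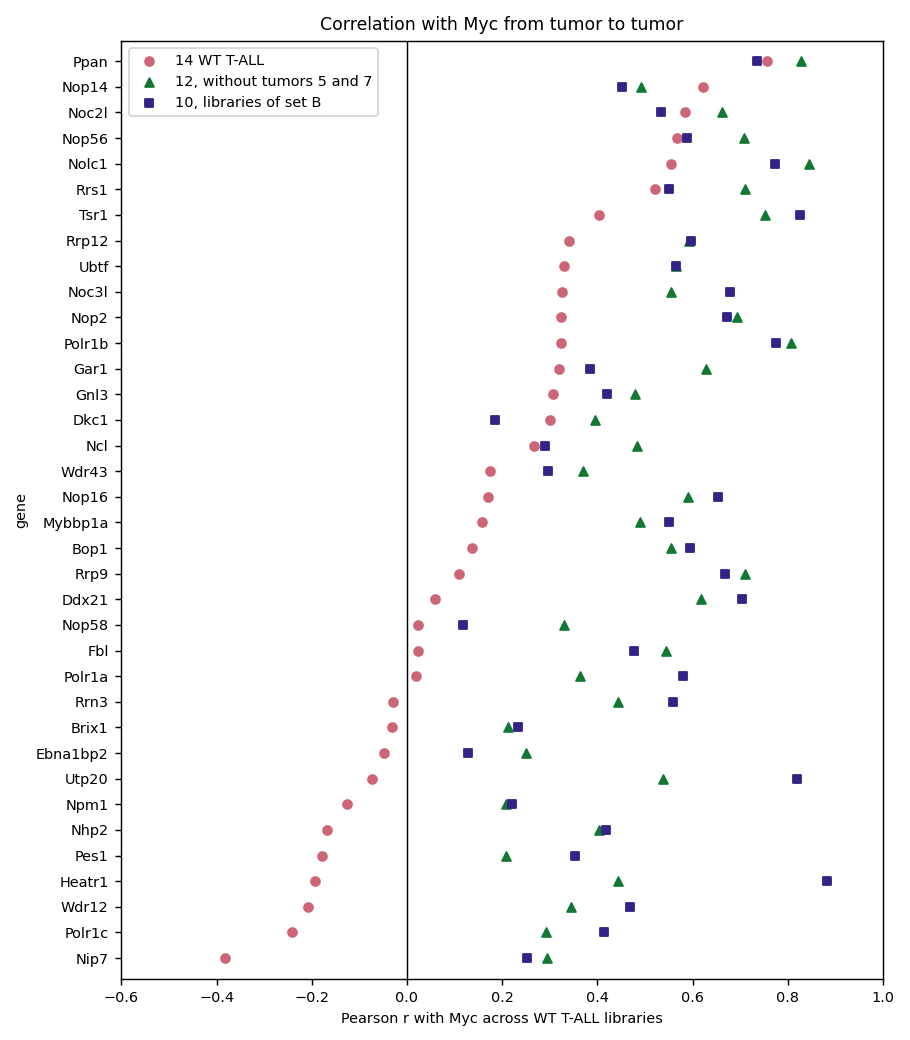
The horizontal axis is Pearson's r with Myc across WT T-ALL libraries and the vertical axis lists the 36 genes. Red circles use 14 libraries, green triangles the 12 without tumors 5 and 7, and blue squares the 10 of set B. The circles run from -0.38 to 0.76, and all triangles and squares lie above 0.

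By role, over all 14 libraries, the median r was 0.26 for the small subunit, 0.20 for snoRNP proteins, 0.16 for abundant nucleolar proteins, 0.15 for the large subunit and 0.09 for RNA polymerase I transcription. Each role held genes on both sides of 0. Without tumors 5 and 7 the medians lay between 0.47 and 0.59. Npm1, the gene with the largest log2 difference between WT T-ALL and thymus over all libraries, had r = -0.13 over 14 libraries (permutation p = 0.669, rho = -0.17, permutation p = 0.562). Its r was 0.21 without tumors 5 and 7 and 0.22 within set B.

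Tumors 110 and 5 moved the relation in opposite directions. Tumor 110 had the least Myc (6.14), was the lowest of the 14 in 8 genes and held the most neutrophil RNA, with a summed scaled RPKM of 86890 for that list. Without it, 16 of the 36 genes had r above 0, against 5453 of all 11361 genes. The median was -0.02 over the 36 and -0.02 over all genes. Without tumor 5 alone, 32 of the 36 had r above 0, against 5848 of all 11418 genes, and the median was 0.37 against 0.01. On the scale of the sum of other genes, 6 of the 36 were called, but so were 1888 of all genes with a positive r, and the median over all genes was 0.35. Over all 17 T-ALL libraries 31 of the 36 genes had r above 0, against 6064 of all 11676 genes. Their median was 0.32, against 0.02 over all genes, and 0 of the 36 were called.

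**Figure D5:**
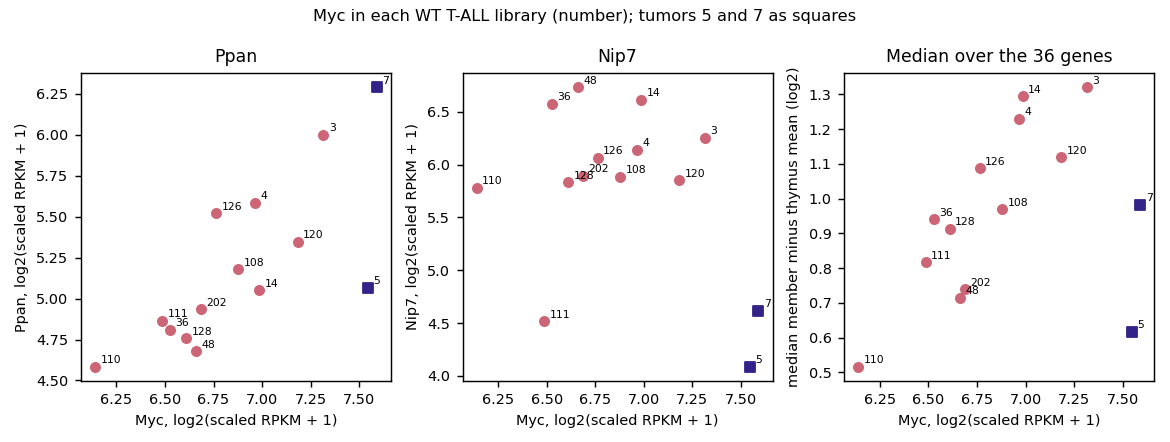
Each point is 1 WT T-ALL library, marked with its number. The horizontal axis is Myc and the vertical axis Ppan, Nip7 or the median over the 36 genes of the difference from the thymus mean, all as log2(scaled RPKM + 1). Tumors 5 and 7, drawn as squares, have the most Myc, with a median difference of 0.62 and 0.98, and tumor 110 has the least, with 0.52.

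The 36 genes also moved with one another. Of their 630 pairs, 549 had a positive r across the 14 WT T-ALL libraries, with a mean of 0.37 where the mean over all pairs of genes was 0.01. The pairs share their libraries, and no test was made. Polr1a and Mybbp1a were closest (r = 0.93), followed by Rrp9 and Nop2 (0.91) and Nop58 and Dkc1 (0.90), and Polr1a and Dkc1 were farthest apart (-0.46). The tumors differed in level: the median of the 36 genes stood 0.52 above the thymus mean in tumor 110 and 1.32 above it in tumor 3. Tumor 14 was the highest of the 14 in 18 genes, Npm1, Ncl, Dkc1 and Nhp2 among them. Tumor 126 was the highest in 9, such as Polr1a, Mybbp1a and Rrn3, and the lowest in 7, such as Npm1, Ncl and Dkc1. In that library the deviation of the 36 genes from their WT T-ALL mean went with the GC content of their transcripts (r = 0.78 across genes), as it did over all genes (r = 0.44), and in tumor 14 the signs were opposite (-0.56 and -0.21). Across genes these coefficients are descriptions, since genes of one library are not independent. Without tumors 14, 36, 48 and 126, the libraries with the strongest such trends over all genes, 33 genes were higher in WT T-ALL, where 3326 of all 11793 were.

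Small nucleolar RNAs are cut from introns of many such genes. On the same strand, 23 of them lie within 8 of the 36 genes, and 12 of these are listed in the table. None of the 12 reached a scaled RPKM of 1 in any library, and 10 were listed at 0 in all 23. Among all genes listed, 119 had a symbol that starts with Snord, Snora or Scarna, of which 7 were expressed enough to be tested. Of these 0 were called in WT T-ALL against thymus, while in Notch3 KO T-ALL 6 were higher than in thymus and 6 higher than in WT T-ALL (limma). The filter asks for 3 libraries, as many as the Notch3 KO group holds, so genes can pass it through that group alone. Whether these 7 did so is not shown here, and no conclusion is drawn from the 6 calls. The libraries were made from mRNA, and all 3 Notch3 KO samples are in set A.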

How the data were processed

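RNA-seq of 6 thymus, 14 WT T-ALL and 3 Notch3 KO T-ALL samples was read from one table of 24475 genes. Per the study's methods, the authors aligned stranded mRNA libraries with OSA against mm10 transcripts and quantified them in ArrayStudio. Whether strand was used in counting is not given in the sources used here, and 12 of the 36 genes overlap a coding gene on the other strand. The deposited values are log2(RPKM + 1), scaled by the authors so that the upper quartile of each library is an RPKM of 10.0, which was read from the values. The offset shrinks differences of low genes. The table used here holds no counts; the study's methods give 1 approximate depth for all libraries and not that of each. A spreadsheet had turned 27 symbols into dates, which were restored by gene identifier.

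Genes that reached a scaled RPKM of 1 in 3 or more fitted libraries entered limma 3.58.1 under R 4.3.3, whose eBayes step used trend and robust, with all 3 groups in 1 fit for comparisons with thymus and both T-ALL groups for the third. Calls use a two-sided, Benjamini-Hochberg adjusted p under 0.05 over all genes tested. Correlations with Myc, of genes and of 8 library measures, used two-sided permutation tests with 100000 resamples (Python 3.11.15, numpy 2.4.6). Exact permutation tests were an alternative. Both kinds of test were tested on simulated data. Samples were grouped by their labels. Nothing says that samples with the same number are related, and the correlation of same-numbered libraries ran from -0.24 to 0.15, so they were not paired. The 36 genes, the lists and the tests were chosen with earlier results of these data known. Values are given in full for the gene with the largest and the smallest difference between WT T-ALL and thymus in each role and for Myc. The other comparisons name the 3 largest and 3 lowest differences, the correlations the 4 highest and 2 lowest, and the pathway lists the 2 called genes with the largest rise and fall. Other genes named for spread, for a shared complex or for a tumor's extremes were chosen after their values were seen. Alternatives varied the offset, filter, scaling, model, covariates, libraries and library sets. The sets, and fits corrected for GC content and length or without thymus 5 and 6, WT T-ALL 110, WT T-ALL 14, 36, 48 and 126, or WT T-ALL 110 and 126, were added after seeing the data. Positions are from GRCm38.p6.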

Additional observations from a re-analysis of the deposited data

Results flagged for a closer look

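In the 6 thymus libraries, 2 of the 37 genes described (the 36 and Myc) had 1 library far from the rest by Dixon's criterion, which chance alone meets in about 1 of 20 groups. Brix1, a large subunit factor, was 5.57 in thymus 6, where the other 5 libraries ran from 4.41 to 4.72. Wdr12 was 5.39 in thymus 3, where the other 5 ran from 4.88 to 5.06.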

How the results depend on the processing

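Of 36 genes, 33 were higher in WT T-ALL than in thymus and 30 in Notch3 KO T-ALL, where 29.3% and 21.2% of all genes were. Leaving out each library in turn gave 32 to 33 and 24 to 30, where 3059 to 3606 and 1587 to 2687 of all genes were higher. The 32 came without thymus 6 and the 24 without Notch3 KO library 1. The exact permutation test gave 33 and 26, where 3433 and 2632 of all 11919 genes were higher. Quantile normalization gave 32 and 29, where 2848 and 2061 of all genes were. The correction for GC content and length gave 31 and 25, where 2932 and 2074 of all genes were. Fewer were called with erythroid markers as a covariate (14 and 4), where 694 and 205 of all genes were higher. With proliferation markers 1 and 0 were called, where 403 and 263 of all genes were higher. After scaling to the sum of genes other than mitochondrial and hemoglobin genes 23 (with 2 lower) and 17 were higher, where 1869 and 1273 of all genes were. For the 145 other genes of the pathway, 94 and 61 were called in either direction. With erythroid markers these became 14 and 3. Of all 11919 genes 694 were then higher and 695 lower in WT T-ALL, and 205 and 159 in Notch3 KO T-ALL. With proliferation markers they became 2 and 0, where 403 and 683, and 263 and 339, of all genes were. After scaling to the sum they became 56 (37 higher, 19 lower) and 33 (18 higher, 15 lower), where 1869 and 4618, and 1273 and 3614, were. Within set A 36 were called in WT T-ALL, where 993 of all 11234 genes were higher and 716 lower. Leaving out each library gave 84 to 97 and 34 to 70. The 34 came without Notch3 KO library 1, where 1836 of all 11888 genes were higher and 1444 lower. Without library 3 there were 37, where 1587 of all 11862 genes were higher and 1272 lower. The cause was not tested. Between the T-ALL groups 0 genes of either kind were called under all alternatives run, and in the correlation with Myc 0 of the 36, except 6 after scaling to the sum.

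Among the 36 genes, 3 called differences changed sign with a covariate, none of them then passing the test: against thymus, Nip7 in WT T-ALL (-0.44) and Polr1c in Notch3 KO T-ALL (-0.029) with erythroid markers, and Ncl in WT T-ALL (-0.20) with proliferation markers. Both covariates lay apart between thymus and T-ALL, so signs under a covariate are extrapolations. The other reversals against thymus were of differences that had not passed. Ubtf in WT T-ALL became 0.35 within set A, and Wdr12 became 0.048 within set B. Against thymus, Wdr12 in Notch3 KO T-ALL became 0.11 with the library set as a term, Ubtf -0.21 and Rrn3 -0.14 after scaling to the sum, and Rrn3 -0.060 with erythroid markers. In Notch3 KO T-ALL, Nip7 became -1.36 and Heatr1 -0.25 with erythroid markers, and Ncl -0.61 with proliferation markers. In WT T-ALL, Rrn3 became -0.13 after scaling to the sum. Nhp2 between the T-ALL groups became 0.053 within set A and with the set as a term. Without single libraries, Wdr12 in WT T-ALL ran from -0.15 to 0.030, and between the T-ALL groups Npm1 ran from -0.50 to 0.11, Dkc1 from -0.45 to 0.19, Nhp2 from -0.43 to 0.18 and the median over the 36 genes from -0.020 to 0.28. The replicate block, with the number in the label as a block, gave 33 and 30 genes, so it changed no count of the 36, and 97 and 66 of the other genes. Of all genes, 3541 and 2635 were then higher and 2696 and 2061 lower. Same-numbered libraries were not shown to be related. No paired analysis was possible between the T-ALL groups because they share only 1 number. Intervals in Notch3 KO T-ALL rest on 3 libraries.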
